A study of Mus musculus with 8 samples.

Results

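Bone morphogenetic proteins (BMPs) are secreted ligands that bind paired receptor kinases on the cell surface. The receptors phosphorylate Smad proteins, which enter the nucleus with Smad4 and switch on target genes. In marrow mesenchymal cells this pathway is known for driving the osteoblast lineage. The 6 genes described here are the ligands Bmp2 and Bmp4, the direct Smad targets Id1, Id2 and Id3, and Smad7. The receptors and the Smads that carry the signal are not among them. The Id proteins bind basic helix-loop-helix transcription factors and keep them off DNA. Smad7 is an inhibitory Smad that is induced by the signal and blocks the receptors in a feedback loop. KDM4B is a demethylase that takes methyl groups off lysine 9 of histone H3, and the trimethylated residue, H3K9me3, is a mark of repressed chromatin.

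Peaks were taken from 6 fixed windows of mouse build mm9, 1 for each gene, and a peak belonged to a window when its midpoint lay inside. The windows held 50 of the 88367 peaks in the 6 lists, and together they spanned 200 kb. The Id1 window was chromosome 2 from 152550001 to 152575000 and the Bmp2 window chromosome 2 from 133365001 to 133400000. The Id2 window was chromosome 12 from 25765001 to 25795000 and the Id3 window chromosome 4 from 135690001 to 135715000. The Bmp4 window was chromosome 14 from 46990001 to 47020000 and the Smad7 window chromosome 18 from 75515001 to 75570000. No gene annotation of mm9 was used here, so exons, introns and start sites were not placed within the windows. That each window holds its named gene was not checked either, and a gene name below stands for its window and not for an assigned peak. In the gene order of the GRCm38.p6 RefSeq table the nearest protein-coding neighbours are H13 and Cox4i2 for Id1, Kidins220 and Rnf144a for Id2, Rpl11 and E2f2 for Id3, Fermt1 and Hao1 for Bmp2, Ddhd1 and Cdkn3 for Bmp4, and Dym and Ctif for Smad7. In that table Cox4i2 and Ctif lie closer to Id1 and Smad7 than the width of the window, and the predicted genes Gm15217 and Gm15222 overlap Bmp4 and Gm41776 overlaps Smad7, and peaks were not divided between them.

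The cells were primary bone marrow mesenchymal stem cells kept for 4 hours in osteogenic induction, which starts bone differentiation. Libraries labelled WT came from Prx1Cre; Kdm4bw/w mice and libraries labelled KO from Prx1Cre; Kdm4bf/f mice, so both genotypes carried the Cre driven by the limb mesenchyme promoter Prx1. The labels of the KDM4B libraries give WT or KO in the title alone, and the sources used here give no age, number of animals or pooling. Each of 3 antibodies, against KDM4B, H3K9me3 and total H3, was used in 1 WT and 1 KO library, so no difference between genotypes could be tested. The identity of the cells was not checked against marker genes, since these files hold peak positions and no expression.

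Over the whole lists, KDM4B had 32017 peaks in WT and 35 in KO, H3K9me3 had 943 in WT and 55306 in KO, and H3 had 38 and 28. Filtered depth was known for 1 library, H3 in WT, with 40420466 tags, and is unknown for the other 5. Intervals below are 95% intervals and cover counting error only. Those of peak counts treat peaks as independent, which neighbouring peaks of 1 window are not, so they are too narrow.

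Reference sequence upstream of the gene start was found for 3 of the 6 genes, Id2, Id3 and Bmp4, in the RefSeq promoter table of build GRCm38.p6. All 3 are shown, and the choice was set by what the promoter table held. Id2 and Id3 lay in windows with the widest KDM4B peaks described here and Bmp4 in a window with none. Each run is the 250 bases before the start, 5′ to 3′ on the gene's strand. Capitals mark matches, on either strand, to 3 motifs that Smad proteins are known to bind. They are GGCGCC, the short motif CAGAC and the palindrome GTCTAGAC, and none contains another. The positions are in GRCm38.p6 and were not carried over to mm9, so whether a called peak covers these bases was not determined.

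Id2, chr12:25096093-25096342, minus strand: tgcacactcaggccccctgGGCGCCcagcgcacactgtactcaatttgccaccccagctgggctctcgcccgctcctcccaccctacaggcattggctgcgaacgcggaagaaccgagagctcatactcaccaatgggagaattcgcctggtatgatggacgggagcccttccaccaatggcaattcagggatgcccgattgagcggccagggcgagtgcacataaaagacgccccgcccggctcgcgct
Id3, chr4:136143572-136143821, plus strand: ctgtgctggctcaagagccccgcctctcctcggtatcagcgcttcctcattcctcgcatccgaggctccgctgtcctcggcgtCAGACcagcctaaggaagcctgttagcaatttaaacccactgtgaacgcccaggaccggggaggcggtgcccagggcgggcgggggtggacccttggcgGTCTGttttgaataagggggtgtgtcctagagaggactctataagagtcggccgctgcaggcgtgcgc
Bmp4, chr14:46390670-46390919, minus strand: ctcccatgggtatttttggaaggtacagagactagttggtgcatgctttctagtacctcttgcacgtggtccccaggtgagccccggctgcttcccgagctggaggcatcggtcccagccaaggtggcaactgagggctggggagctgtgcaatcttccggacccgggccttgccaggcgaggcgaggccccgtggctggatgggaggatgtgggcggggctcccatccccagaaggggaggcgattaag

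The 3 stretches were alike in base composition and differed in CpG number. GC content was 62.8% for Id2, 62.8% for Id3 and 63.2% for Bmp4, against a median of 52.4% over the 32851 promoters of the table. Id2 and Id3 each had 18 CpG dinucleotides and Bmp4 had 11, against a median of 6. At least 18 were present in 21.7% of all promoters and at least 11 in 35.6%, so neither number is rare. The Id2 stretch held 1 GGCGCC, which 9.59% of all promoters hold. The Id3 stretch held 2 matches to CAGAC, and 42.2% of all promoters hold at least 1. The share with 2 was not counted. GTCTAGAC was found in none of the 3 and in 0.167% of all promoters. A match is a description of these letters and not a bound site.

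KDM4B binding at these genes was compared first between cells with and without Kdm4b. In WT cells KDM4B had 18 peaks over the 6 windows (exact Poisson interval 10.7 to 28.4), covering 31.8 kb or 15.9% of the window sequence. All 18 lay in 4 windows, those of Id1, Id2, Id3 and Smad7, and the ligand windows of Bmp2 and Bmp4 had 0. In KO cells KDM4B had 0 peaks in every window. The whole KO list is short, and at the ratio of the list lengths 0.0197 KO peaks would fall in the windows, so the 0 does not set these windows apart from the genome.

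To read the number of windows with a peak, the autosomes were cut into tiles of the same widths. At least 1 KDM4B WT peak was present in 16.9% of tiles of 25 kb, the width of the Id1 and Id3 windows. The share was 19.0% at the 30 kb of Id2 and Bmp4, 21.1% at the 35 kb of Bmp2 and 27.6% at the 55 kb of Smad7. The tiles are any sequence and were not centred on genes, so they describe a genomic background and not that of expressed genes.

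**Figure D1:**
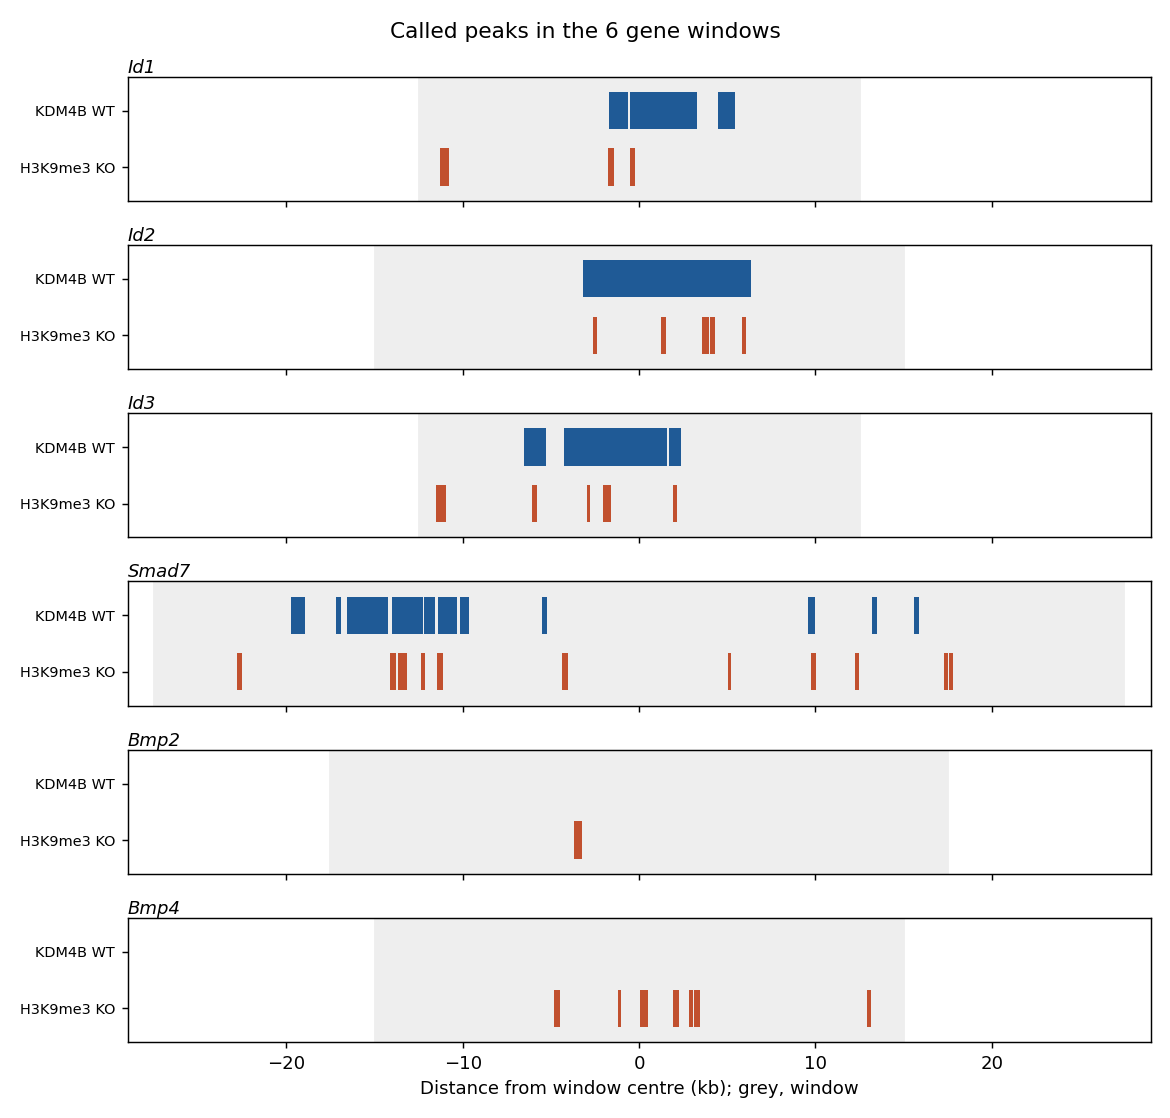
Peaks called in each gene window, drawn to scale as distance from the window centre in kb, with KDM4B of WT cells above and H3K9me3 of KO cells below; the grey band is the window. The other 4 lists had 0 peaks and are not drawn. KDM4B blocks fill the middle of the Id1, Id2 and Id3 windows and the lower-coordinate side of the Smad7 window, while the Bmp2 and Bmp4 windows hold H3K9me3 of KO cells alone.

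Among the Smad targets, Id2 had a single KDM4B peak that was the widest of all those in the 6 windows. It ran from 25776843 to 25786361 on chromosome 12, a width of 9.52 kb, and filled 31.7% of its window. It ranked 34th by width among the 32017 WT peaks. Only 0.375% of tiles of 30 kb had as much KDM4B covered length.

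Id3 had 3 KDM4B peaks that covered 7.77 kb, or 31.1% of the window. The main peak, on chromosome 4 from 135698223 to 135704082, was 5.86 kb wide and ranked 134th. A peak of 653 bp followed after a gap of 134 bp, and a peak of 1.25 kb preceded it by 1004 bp. As much covered length was reached in 0.437% of tiles of 25 kb.

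Id1 also had 3 peaks, covering 5.74 kb or 23.0% of the window. The main peak, on chromosome 2 from 152562011 to 152565788, was 3.78 kb wide and ranked 351st. A peak of 1.03 kb ended 165 bp before it, and the other one, of 932 bp, began 1200 bp after it. As much covered length was found in 0.799% of tiles of 25 kb. By number, the 3 peaks of Id1 and of Id3 were less unusual. At least 3 were found in 4.49% of these tiles, and in 26.5% of those with a KDM4B peak. The 3 Id windows shared a KDM4B peak of 3 kb or wider within 2 kb of the window centre. These were 3 of the 7 KDM4B peaks of the Id windows, whereas 1.88% of all WT peaks are 3 kb or wider. The share of tiles with such a peak was not counted.

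Smad7, the feedback inhibitor, had a different layout, with many narrower peaks. Its 11 KDM4B peaks ranged from 250 to 2319 bp, with a median of 545 bp, and covered 8.74 kb or 15.9% of the window. That many peaks were found in 0.951% of tiles of 55 kb, and as much covered length in 1.17%. Of the 11 peaks, 6 formed a chain on chromosome 18 from 75525296 to 75532880, separated by gaps of 87 to 356 bp. Joined across gaps of up to 1 kb, this chain was a block of 7.59 kb. By the same joining, the main blocks were 9.52 kb at Id2, 6.65 kb at Id3 and 4.98 kb at Id1. They ranked 188th for Id2, 328th for Smad7, 414th for Id3 and 732nd for Id1 among 21695 joined regions. Over the 4 windows, 8 of the 18 peaks were 1 kb or wider, against 19.9% of the whole list.

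**Figure D2:**
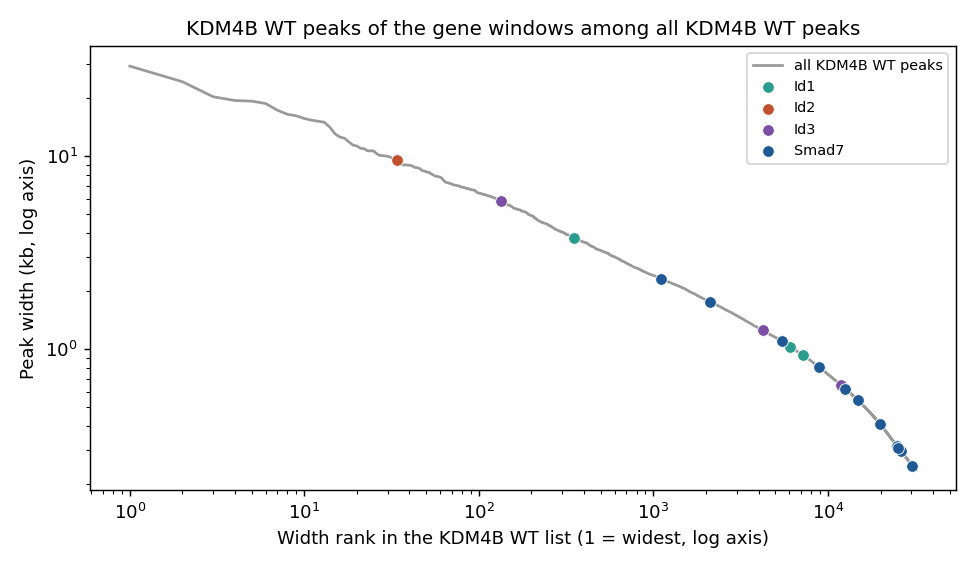
Width in kb of every KDM4B peak of WT cells against its width rank, both on log axes, as a grey line, with the peaks of the Id1, Id2, Id3 and Smad7 windows as coloured points. The main Id2, Id3 and Id1 peaks sit at ranks 34, 134 and 351, and the Smad7 peaks spread from rank 1110 to 30147.

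The windows of the ligand genes had no KDM4B peak in WT cells. The peak nearest to the Bmp2 window lay 27.4 kb from its edge, and the one nearest to the Bmp4 window lay 408 kb away. With 1 library and no scores, binding below the calling threshold at Bmp2 or Bmp4 cannot be told apart from no binding. Most tiles of 35 and 30 kb also held no KDM4B peak, as the shares above show, so the absence does not set these windows apart.

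The second comparison asked where H3K9me3 was found at these genes with and without the demethylase. In KO cells all 6 windows held H3K9me3 peaks, 32 in total (exact Poisson interval 21.9 to 45.2), covering 9.98 kb or 4.99% of the sequence. In WT cells none of the 6 windows held any. The whole KO list is 58.6 times as long as the WT list, and at that ratio 0.546 WT peaks would fall in the windows. The 0 in WT therefore does not set the windows apart from the genome.

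At least 1 KO peak was present in 26.4% of tiles of 25 kb, 29.2% of 30 kb, 31.7% of 35 kb and 39.8% of 55 kb. At least 1 WT peak was present in 0.520%, 0.608%, 0.700% and 1.05% of tiles of the same widths. The nearest WT peak was 511 kb from the Smad7 window, 939 kb from Id3, and 1699 to 12602 kb from the other 4. No KO peak of the windows overlapped a WT peak, while 0.788% of the whole KO list did. Total H3 had 0 peaks in all 6 windows in both genotypes, where a peak was present in 0.0444% of tiles of 55 kb in each genotype, so this 0 does not set the windows apart either.

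**Figure D3:**
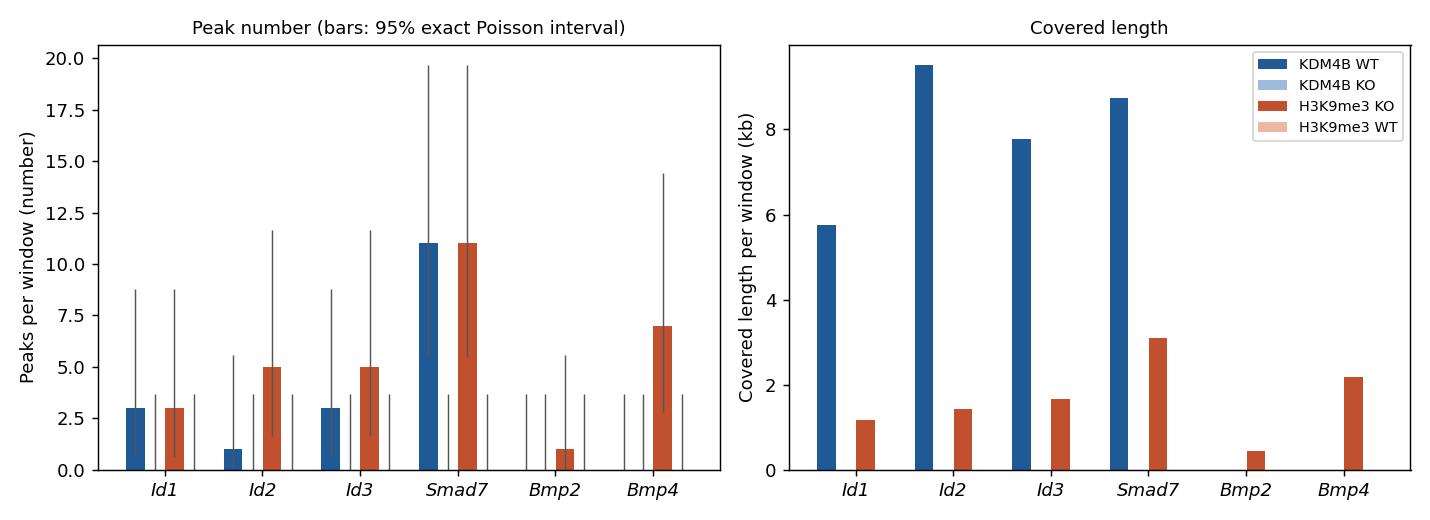
Number of peaks per window, with 95% exact Poisson intervals as thin lines, and covered length per window in kb, for KDM4B and H3K9me3 in WT and KO cells, 1 library each. KDM4B is present in 4 windows in WT and in 0 in KO, and H3K9me3 in 0 windows in WT and in 6 in KO.

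The H3K9me3 peaks of KO cells were narrow in all windows, from 199 to 524 bp with a median of 285 bp, close to the 256 bp of the whole KO list. The 199 bp is also the smallest width in that whole list. At Id1 there were 3, of 521, 342 and 298 bp, covering 1.16 kb. At Id2 there were 5, from 228 to 429 bp, covering 1.43 kb. At Id3 there were 5, from 199 to 524 bp, covering 1.66 kb. Smad7 had 11, from 199 to 497 bp, covering 3.11 kb.

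Bmp4, with no KDM4B peak, had 7 KO peaks from 199 to 466 bp that covered 2.17 kb, or 7.24% of its window, the highest share of the 6. Of these, 6 lay between 47000150 and 47008463 on chromosome 14, and the other one at 47017920 to 47018165. As many peaks were found in 2.47% of tiles of 30 kb, and as much covered length in 2.18%. Bmp2 had 1 KO peak, of 443 bp, on chromosome 2 from 133378805 to 133379247. At least 1 KO peak without any KDM4B peak was found in 18.1% of tiles of 35 kb and 17.4% of tiles of 30 kb. For the 7 KO peaks of Bmp4 the 17.4% is a loose background. Of the 70192 tiles of 30 kb, 1737 had at least 7 KO peaks, and 962 of these held a KDM4B peak.

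The counts per window were small and their intervals wide. Per 10 kb, KO peaks numbered 2.33 at Bmp4, 2.00 at Id3 and Smad7, 1.67 at Id2, 1.20 at Id1 and 0.286 at Bmp2. The exact Poisson interval of the count was 2.81 to 14.4 peaks at Bmp4 and 0.0253 to 5.57 at Bmp2, which overlap. The windows are 30 and 35 kb wide, and overlap of intervals is not a test, so a difference between them was not tested. The share of tiles with at least as many KO peaks was 2.68% for Smad7, 3.61% for Id3, 4.71% for Id2, 8.28% for Id1 and 31.7% for Bmp2. Among tiles that held a KDM4B WT peak, it was 6.89% for Smad7, 10.3% for Id3, 12.9% for Id2 and 22.0% for Id1. By the share of the window that KDM4B covered, the order was another one, with 31.7% at Id2, 31.1% at Id3, 23.0% at Id1, 15.9% at Smad7 and 0 at Bmp2 and Bmp4.

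**Figure D4:**
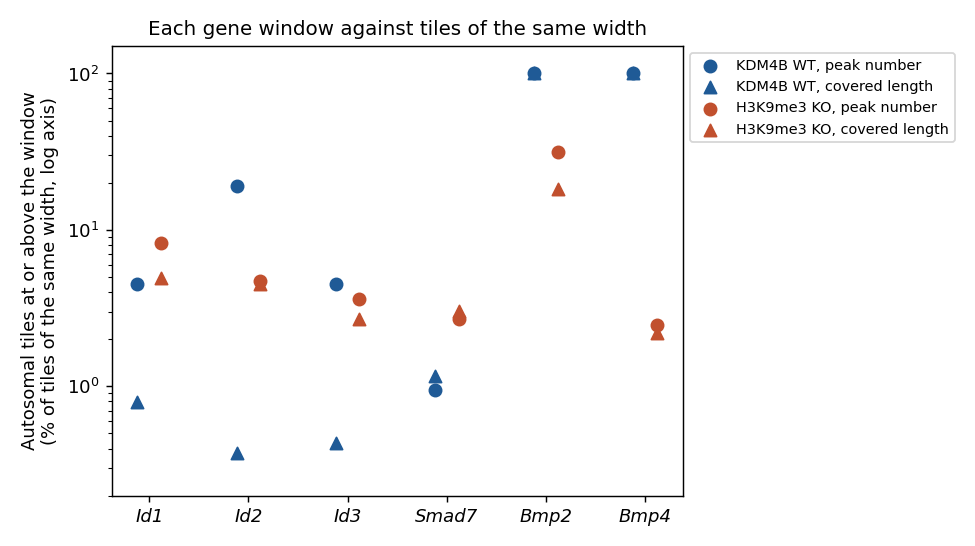
Percent of autosomal tiles of the same width that hold at least as many peaks (circles) or as much covered length (triangles) as each gene window, on a log axis, for KDM4B of WT cells in blue and H3K9me3 of KO cells in red. KDM4B covered length puts Id1, Id2, Id3 and Smad7 between 0.375% and 1.17%, and Bmp2 and Bmp4 stand at 100% for KDM4B because they hold 0 peaks.

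The third comparison asked whether H3K9me3 of KO cells lay where KDM4B was bound in WT cells. Of the 18 KDM4B peaks, 10 overlapped a KO H3K9me3 peak by at least 1 bp, or 55.6% (exact binomial interval 30.8 to 78.5%), against 22.8% of the whole KDM4B list. Without the Smad7 window the share was 85.7%, or 6 of 7 peaks. Of the 32 KO H3K9me3 peaks, 16 overlapped KDM4B, or 50% (31.9 to 68.1%), against 15.7% of the whole KO list. None of the 18 KDM4B peaks overlapped H3K9me3 of WT cells, and 0.0531% of the whole list did, so that 0 is the common state. Peaks of 1 window are neighbours and not independent, so these intervals are too narrow. Tiles were also counted that held both a KDM4B WT peak and an H3K9me3 KO peak, which come from different cells. Their share was 10.1% at 25 kb, 11.9% at 30 kb and 19.8% at 55 kb.

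Width moved with this overlap. In the windows, 7 of the 8 KDM4B peaks of 1 kb or wider overlapped a KO H3K9me3 peak, and 3 of the 10 narrower ones did. In the whole list the shares were 43.1% and 17.7%. All 3 window peaks of 3 kb or wider overlapped one, as did 69.3% of the 603 such peaks in the genome. The part of width in the share of the 18 was not tested.

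At Id2 all 5 KO H3K9me3 peaks lay within the single KDM4B peak and took up 15.0% of its length, and the rest of the window had none. Among the 126 KDM4B peaks of 6 kb or wider, 15.9% overlapped 5 or more KO peaks and the median was 2. At Id3 4 of 5 KO peaks overlapped KDM4B, 2 of them in the main peak and 1 in each of the others. The one off KDM4B lay 4.44 kb away. At Id1 2 of 3 overlapped, and both straddled the lower-coordinate edge of a KDM4B peak. The first, from 152560748 to 152561089, shared 277 bp with the KDM4B peak that starts at 152560813. The second, from 152561976 to 152562273, shared 263 bp with the main peak that starts at 152562011. The body of the main Id1 peak held no other KO peak.

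At Smad7 5 of 11 KO peaks overlapped KDM4B, and 4 of the 11 KDM4B peaks were involved. Of the 5, 4 lay between 75528373 and 75531362, inside the KDM4B chain, where one of 220 bp bridged 2 KDM4B peaks. The widest KDM4B peak of the window, 2.32 kb from 75525949 to 75528267, ended 105 bp short of the nearest KO peak and had no overlap. The KO peaks off KDM4B lay 0.714 to 4.33 kb from it. By bases, 15.7% of the KDM4B sequence at Smad7 carried H3K9me3 in KO cells, against 14.7% at Id3, 15.0% at Id2 and 9.40% at Id1. Over the whole list 10.4% of KDM4B bases did. Outside KDM4B the share was 3.74% at Smad7, 3.04% at Id3, 3.22% at Id1 and 0 at Id2. In the windows without any KDM4B peak it was 7.24% at Bmp4 and 1.27% at Bmp2.

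The surroundings of the windows, 250 kb to each side of the centre, are described without a test. The 500 kb around Bmp4 held 7 KO H3K9me3 peaks, all inside the window, and 0 KDM4B peaks. Around Bmp2 the only KO peak was the one in the window, and 6 KDM4B peaks lay outside it. Around Id1 there were 29 KDM4B and 44 KO H3K9me3 peaks, around Id3 39 and 48, and around Id2 12 and 17. Around Smad7 there were 15 and 46. The median autosomal tile of 500 kb held 3 and 5, and no H3K9me3 peak of WT cells fell in any of the 6 spans.

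Inside and outside the windows, peak densities were as follows. Of the 15 KDM4B peaks around Smad7, 11 lay in the window, which gave 2.00 per 10 kb inside and 0.0899 outside. At Id1 the same densities were 1.20 and 0.547, and at Id3 they were 1.20 and 0.758. They were 0.333 and 0.234 at Id2, whose 1 peak is the wide one, 0 and 0.129 at Bmp2, and 0 and 0 at Bmp4. For KO H3K9me3 they were 1.67 and 0.255 at Id2, 2.00 and 0.787 at Smad7, 2.00 and 0.905 at Id3, and 1.20 and 0.863 at Id1. At Bmp4 they were 2.33 and 0, and at Bmp2 0.286 and 0.

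**Figure D5:**
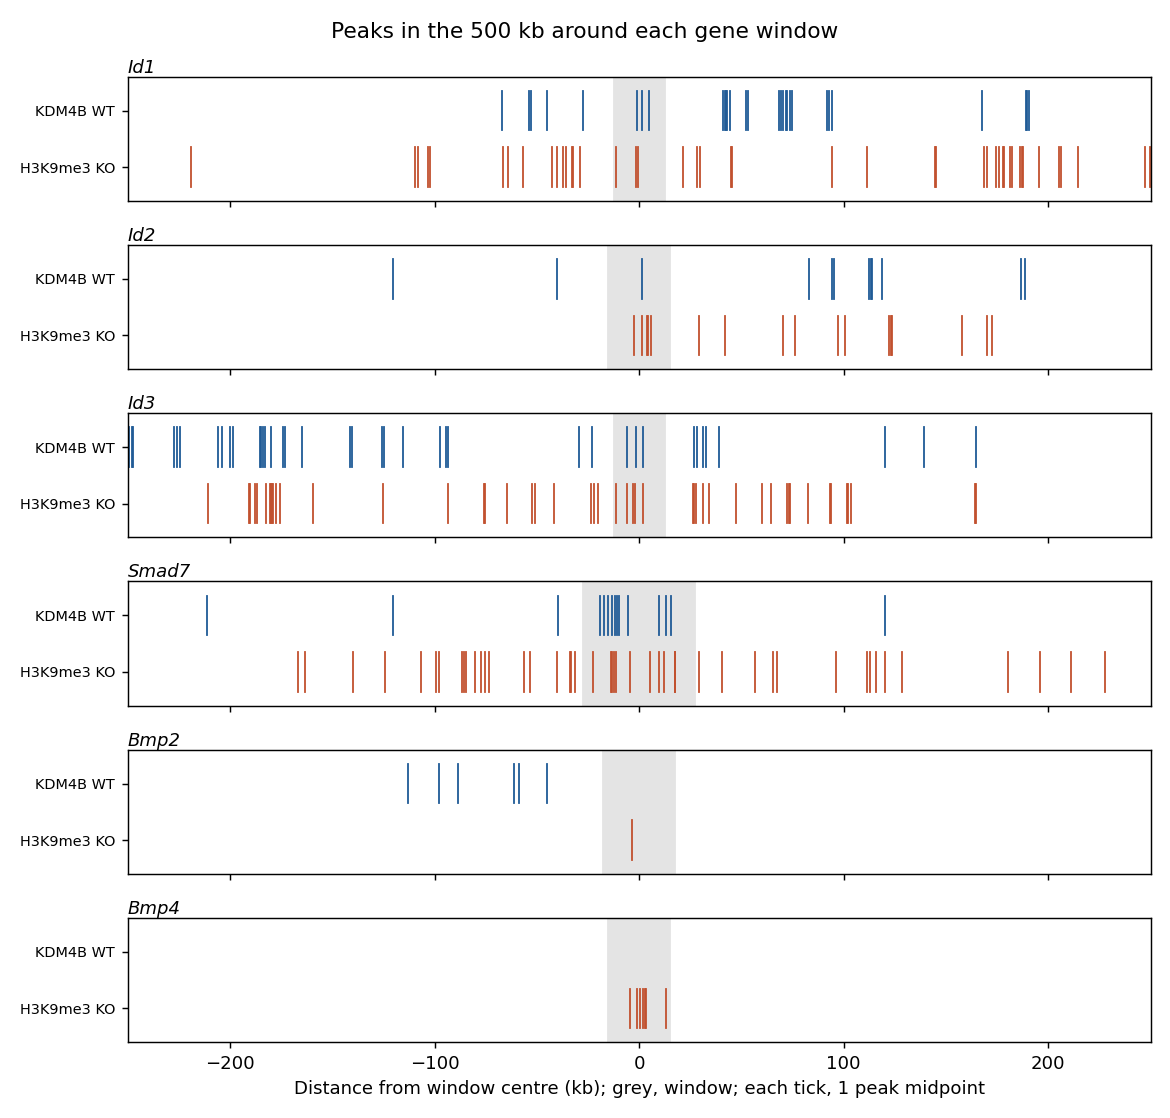
Midpoints of KDM4B peaks of WT cells and H3K9me3 peaks of KO cells, 1 tick a peak, in the 500 kb around each window centre, with distance in kb; the grey band is the window. The Bmp4 ticks, 7 of H3K9me3, all fall in the window, while ticks of both lists are spread over the spans of Id1, Id3 and Smad7.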

How the data were processed

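The submitters' processing notes name Bowtie, SAMtools and a peak caller, which was MACS for the KDM4B libraries and MACS2 for the H3K9me3 and H3 libraries, and the builds mm9 and hg19. Per the file headers, the H3 list of WT was made with MACS2 2.1.4 at a q-value threshold of 0.05. The sources used here give neither version nor threshold for the other lists. The authors deposited peak positions only, without scores, in the other 5 files. Whether their starts count from 0 or 1 is not stated. They were read as counting from 0, so a printed start may be 1 bp off.

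The windows and genes were chosen with earlier results of these data known. All 6 genes are named, with the widest and the overlapping peaks. Overlap meant at least 1 shared bp. Tiles were laid end to end on the 19 autosomes from the first to the last peak of any list. They were kept where their 1 Mb window held a peak. Widths are end minus start. Intervals are exact Poisson or exact binomial (Clopper-Pearson). Overlap code (Python 3.11.15, numpy 2.4.6, scipy 1.17.1) was tested on simulated data and checked with bedtools 2.31.1, which differed in 0 of 30 comparisons. A planned list of further pathway genes needs mm9 positions and was not analysed here. The 2 input libraries were not analysed here. The alternatives were window edges and widths, peak joining, a width minimum, overlap rules and shifted tiles. Leaving out Smad7 was added after seeing the data.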

Additional observations from a re-analysis of the deposited data

How the results depend on the processing

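Of 49 alternative values, 42 stayed within their limits, which were 1.5 times for counts and lengths and the exact binomial interval for shares. These included all 18 counts per gene with windows widened by 10 kb. Counts of 0 stayed 0, for H3K9me3 of WT cells in all 6 windows and for KDM4B at Bmp2 and Bmp4. With edges within 1 kb counted as overlap, the share of KDM4B peaks on H3K9me3 of KO cells rose to 77.8%. That value lay inside its limit only because the interval over 18 peaks is wide, 30.8 to 78.5%. KDM4B peaks in WT fell from 18 to 11 when peaks within 1 kb were merged, since the 6 peaks of the Smad7 chain became 1 region and 2 peaks each at Id1 and Id3 were joined. H3K9me3 peaks in KO numbered 20 in place of 32 when only peaks at least as wide as their list's median were kept, because fewer peaks are then counted. Without the Smad7 window the share of KDM4B peaks overlapping H3K9me3 of KO cells was 85.7% in place of 55.6%, over 7 peaks. Among tiles that hold a KDM4B WT peak, the share with a KO H3K9me3 peak was 59.5% at 25 kb, 62.2% at 30 kb, 64.6% at 35 kb and 71.5% at 55 kb. All 4 windows with KDM4B also held KO peaks, and these shares are the nearer background for them. A stricter calling threshold could not be applied to lists without scores. Depth, control and threshold are unknown for 5 of the 6 lists, and their part in the genotype difference was not tested.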
